A study of Mus musculus with 24 samples.

Results

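The 10 genes described here are receptors, ligands, the DNA-binding factor and targets of the Notch pathway: *Notch1*, *Notch2*, *Notch3*, *Jag1*, *Jag2*, *Dll1*, *Rbpj*, *Hes1*, *Hey1* and *Heyl*. They were chosen by name from the 55291 gene symbols of the count table, and all 10 passed the filter on low counts in every comparison. The cells were C2C12, a long-used line of mouse myoblasts, and carried a scrambled control shRNA (scr) or a lentiviral shRNA against *Baf180*, *Baf250a* or *Brd9* when their RNA was sequenced. Each of these 4 lines was a puromycin-selected population, grown without added metal (NT), with 100 µM CuSO4 (Cu) or with 50 µM ZnSO4 (Zn). A supplementary figure legend of the study gives 48 h of metal treatment for these expression profiles. There were 2 replicates in each of 12 conditions, 24 libraries in all, and the labels name the cells primary myoblasts where the paper names C2C12. *Baf180* (symbol *Pbrm1*), *Baf250a* (*Arid1a*) and *Brd9* encode subunits that mark the PBAF, BAF and ncBAF forms of the mSWI/SNF chromatin remodeler.

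In the Notch pathway a ligand on one cell (Jagged or Delta-like) binds a Notch receptor on its neighbour, and cleavage of the receptor frees an intracellular domain that enters the nucleus. There it joins Rbpj, which otherwise holds targets silent, and turns on genes such as those of the Hes and Hey families of repressors. In muscle the pathway is known for keeping satellite cells undifferentiated.

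The targeted gene was lower in its own KD line in every library. *Pbrm1* ranged from 99.9 to 227 CPM (counts scaled to library size by TMM) in scr and from 42.2 to 75.7 CPM in *Baf180* KD, *Arid1a* from 266 to 308 CPM in scr and from 92 to 144 CPM in *Baf250a* KD, and *Brd9* from 27.2 to 32.4 CPM in scr and from 13.8 to 17.9 CPM in *Brd9* KD. Total counts ran from 12719173 to 75179394 per library, apart from *Baf250a* KD Zn replicate 2 with 495778, where *Hey1* had 1 count. All 8 myoblast markers had a median of at least 1 CPM in scr, and in *Baf250a* KD *Pax7* was below that (0.807 CPM). Endothelial markers summed to 5.19 to 7.01 CPM in scr and at most 2.28 CPM in any KD library, and immune markers to at most 6.22 CPM in any library. In bulk RNA, fewer cells of a type and less RNA per cell cannot be told apart.

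Promoter windows of RefSeq transcripts (GRCm38.p6, 250 bases before to 50 after the start) were at hand for 7 of the 10 genes. They are shown for *Notch1*, *Notch3*, *Dll1* and *Jag2*, whose RNA differed most clearly between lines among the receptors and ligands, and for *Rbpj*, the factor itself. Capitals mark matches on either strand to 6 short motifs: TGGGAA (core of the Rbpj site), GTGGGAA (its longer form), CACNAG (N box), CACGNG (E box class bound by Hes and Hey repressors), and TGCACNC and TGCGCNC (cores of the metal response element bound by MTF1). Some matches overlap.
Notch1, chr2:26503773-26504072, minus strand: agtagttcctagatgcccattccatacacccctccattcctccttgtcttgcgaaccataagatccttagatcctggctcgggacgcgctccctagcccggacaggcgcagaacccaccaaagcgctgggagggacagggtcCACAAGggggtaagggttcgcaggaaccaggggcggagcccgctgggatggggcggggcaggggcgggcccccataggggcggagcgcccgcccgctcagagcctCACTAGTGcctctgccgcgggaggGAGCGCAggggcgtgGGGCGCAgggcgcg
Notch3, chr17:32166841-32167140, minus strand: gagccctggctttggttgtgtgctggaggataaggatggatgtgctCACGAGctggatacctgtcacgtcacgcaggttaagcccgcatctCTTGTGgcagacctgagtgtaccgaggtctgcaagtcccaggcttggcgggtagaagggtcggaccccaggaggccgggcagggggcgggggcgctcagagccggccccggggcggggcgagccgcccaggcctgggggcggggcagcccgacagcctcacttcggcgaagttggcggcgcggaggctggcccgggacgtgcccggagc
Dll1, chr17:15376883-15377182, minus strand: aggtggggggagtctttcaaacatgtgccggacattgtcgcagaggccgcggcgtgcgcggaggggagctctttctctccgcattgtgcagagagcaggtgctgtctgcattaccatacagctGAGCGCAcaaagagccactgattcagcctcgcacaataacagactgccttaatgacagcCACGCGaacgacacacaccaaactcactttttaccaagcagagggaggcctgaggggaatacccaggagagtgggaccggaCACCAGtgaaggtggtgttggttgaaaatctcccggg
Jag2, chr12:112929446-112929745, minus strand: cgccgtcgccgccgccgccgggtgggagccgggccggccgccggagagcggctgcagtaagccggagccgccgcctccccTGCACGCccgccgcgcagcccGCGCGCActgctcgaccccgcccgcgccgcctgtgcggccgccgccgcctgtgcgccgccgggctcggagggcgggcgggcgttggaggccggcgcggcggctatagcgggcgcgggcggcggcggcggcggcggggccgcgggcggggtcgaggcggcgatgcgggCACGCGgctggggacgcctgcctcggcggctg
Rbpj, chr5:53590096-53590395, plus strand: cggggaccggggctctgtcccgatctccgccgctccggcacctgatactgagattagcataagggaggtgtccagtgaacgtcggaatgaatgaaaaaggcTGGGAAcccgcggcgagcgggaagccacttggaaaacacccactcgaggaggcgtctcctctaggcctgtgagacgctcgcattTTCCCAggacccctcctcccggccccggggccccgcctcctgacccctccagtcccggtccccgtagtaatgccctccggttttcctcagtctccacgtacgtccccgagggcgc
Among the windows shown TGGGAA occurred in that of *Rbpj* alone, at 2 places, and GTGGGAA in none. Of all 32851 promoter windows, 25.6% held TGGGAA and 6.38% GTGGGAA. The N box was found 3 times in *Notch1* and 2 times in *Notch3* (42.5% of all windows held it), and CACGNG once each in *Notch3*, *Jag2* and the *Dll1* window shown (27.5%). *Jag2* had 1 match to TGCACNC (12.6% of all windows) and 1 to TGCGCNC (15.4%), and *Notch1* had 2 matches to TGCGCNC. The *Dll1* window shown held 1 N box and 1 match to TGCGCNC. A further *Dll1* window (chr17:15375774-15376073), not shown, held 2 matches to TGCACNC, 1 to CACGNG and no N box. A further *Rbpj* window (chr5:53590236-53590535) held 1 TGGGAA. The *Jag2* window was 86.0% G or C, against 55.7% in *Jag1*. These are matches of letters and not measured sites.

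Per kilobase of exon, *Notch2* had the highest level of the 10 genes in every line, with a median of 39.5 CPM per kb in scr (range 36.7 to 42.3). *Hes1* (median 12.7 CPM per kb) and *Jag2* (12) followed in scr and overlapped each other. *Notch3* (6.77), *Hey1* (6.31) and *Notch1* (5.1) came next as overlapping neighbours in that order, then *Jag1* (4.09) and *Rbpj* (3.29), each apart from the next. *Dll1* (0.672) and *Heyl* (0.593) were the lowest and overlapped. The order differed in the KD lines: in *Baf250a* KD, *Notch1* (10.1 CPM per kb, lowest 9.13) stood above *Jag2* (5.45, highest 7.38). There *Hey1* had the lowest median of the 10 (1.35 CPM per kb) but overlapped *Heyl* (1.43).

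**Figure D1:**
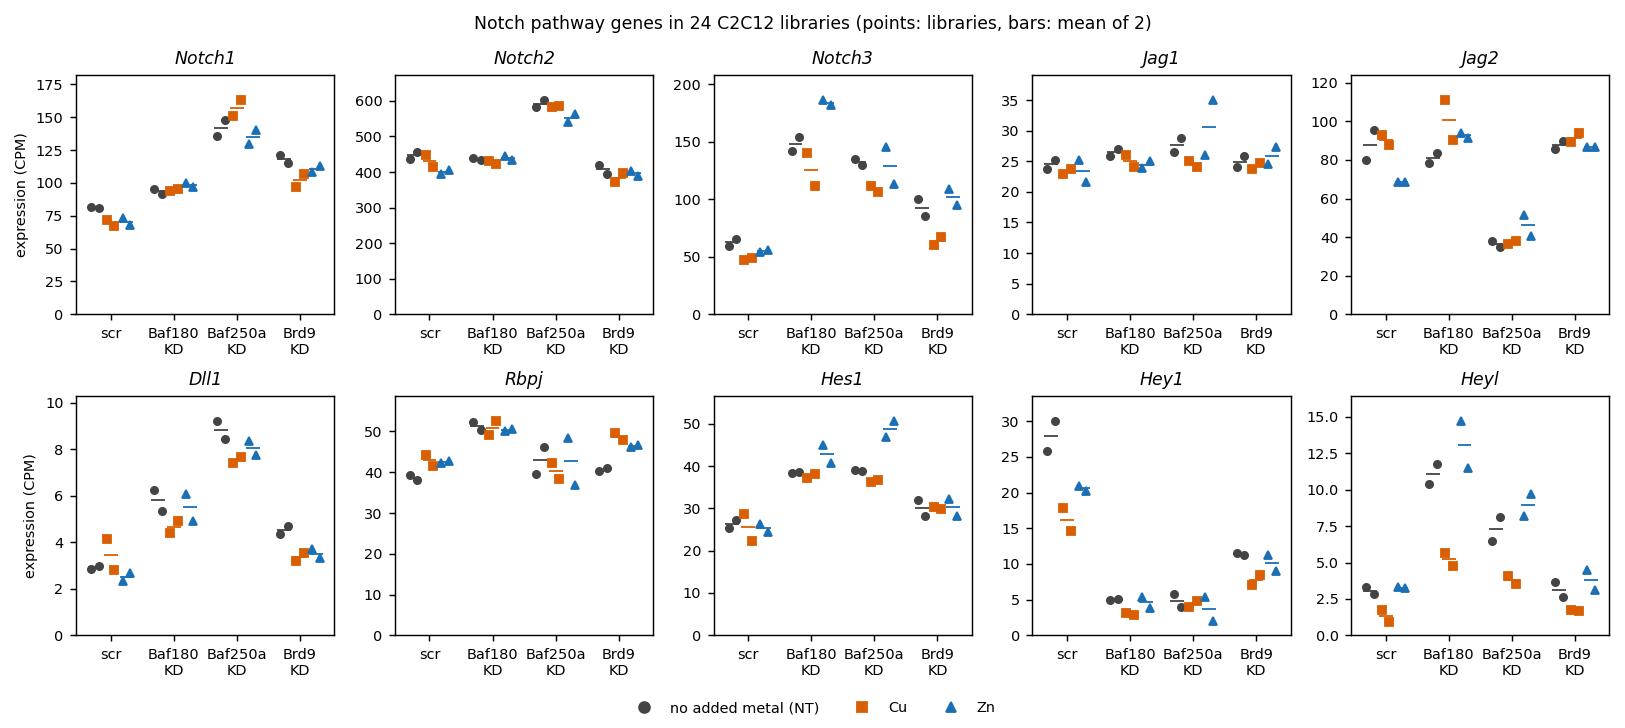
Expression of the 10 genes in CPM (y axis, linear from 0) in each of the 24 libraries, by cell line and treatment, with bars at the mean of 2 replicates. *Notch3*, *Dll1*, *Hes1* and *Heyl* sit higher and *Hey1* lower in *Baf180* and *Baf250a* KD than in scr, and *Jag2* is low in *Baf250a* KD alone.

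The first question was how the RNA of the 10 genes differed between each KD line and scr. The tests measure spread between libraries of these selected cell populations. An effect of losing the subunit cannot be told apart here from an effect of the shRNA or of the population. Over the 3 treatments (6 KD libraries against the same 6 scr libraries for each line, with the treatment as a term of the edgeR fit), *Notch1* and *Notch3* rose in all 3 KD lines, *Notch2* in *Baf250a* KD, and the targets split: *Hey1* fell in all 3 KD lines while *Hes1* rose in all 3 and *Heyl* in 2. An adjusted p under 0.05 was reached by 7 of the 10 genes in *Baf180* KD (6 higher, 1 lower), against 41.3% of all genes tested. In *Baf250a* KD it was 8 (6 higher, 2 lower), against 51.8%, and in *Brd9* KD 4 (3 higher, 1 lower), against 32.8%. The median log2 fold change of the 10 genes was 0.32, 0.56 and 0.16 in that order of lines, against medians of -0.02, 0.00 and 0.00 over all genes.

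*Notch3*, the receptor known for its role in smooth muscle and pericytes, lies at chr17:32120820-32166852 on the minus strand (GRCm38). It had 47.5, 54.7 and 65.4 CPM as lowest, median and highest value in scr, 111, 148 and 186 in *Baf180* KD, 106, 121 and 145 in *Baf250a* KD and 59.9, 90.1 and 109 in *Brd9* KD. All *Baf180* and *Baf250a* KD libraries were above all scr libraries, while *Brd9* KD overlapped scr. The log2 fold change was 1.44 (SE 0.08, adjusted p = 2.06e-08) in *Baf180* KD, 1.19 (SE 0.07, 8.42e-09) in *Baf250a* KD and 0.61 (SE 0.08, 5.61e-05) in *Brd9* KD.

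*Notch1*, the receptor most studied in satellite cells (chr2:26457903-26516663, minus strand), had 67, 72.5 and 82 CPM in scr. In *Baf180* KD it had 91.8, 95.4 and 99.9 CPM, in *Baf250a* KD 130, 144 and 163 CPM, and in *Brd9* KD 96.7, 111 and 121 CPM. Every KD library was above every scr library. It rose by 0.36 on the log2 scale (SE 0.06, adjusted p = 1.73e-04) in *Baf180* KD, 0.99 (SE 0.08, 1.27e-07) in *Baf250a* KD and 0.57 (SE 0.05, 1.83e-06) in *Brd9* KD. In *Baf180* KD its value depended on the correction for GC content and transcript length, which left 0.16 (adjusted p = 0.00456).

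*Notch2*, the receptor with the highest level here (chr3:98013527-98150361, plus strand), rose in *Baf250a* KD. The lowest, median and highest values were 395, 426 and 456 CPM in scr and 542, 582 and 602 CPM in *Baf250a* KD, without overlap, a log2 fold change of 0.45 (SE 0.06, adjusted p = 1.89e-05). *Baf180* KD (423, 434 and 444 CPM) lay within the range of scr, and *Brd9* KD (371, 396 and 420 CPM) overlapped it. For *Baf180* KD the log2 fold change was 0.01 (adjusted p = 0.902), and the GC and length correction turned it to -0.14 (adjusted p = 0.0097). In *Brd9* KD the log2 fold change was -0.12, and it passed the test under that correction (-0.15, adjusted p = 0.00351).

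Of the ligands, *Dll1* (Delta-like 1, chr17:15367354-15376872, minus strand) had 2.33, 2.84 and 4.15 CPM in scr. It had 4.42, 5.14 and 6.27 CPM in *Baf180* KD and 7.43, 8.07 and 9.21 CPM in *Baf250a* KD, both wholly above scr. The log2 fold change was 0.83 (SE 0.14, adjusted p = 4.52e-04) in *Baf180* KD and 1.48 (SE 0.14, 8.54e-07) in *Baf250a* KD. In *Brd9* KD (3.19, 3.61 and 4.72 CPM) it was 0.34 (SE 0.15), short of the threshold (adjusted p = 0.0942), and reached 0.46 (adjusted p = 0.0118) without scr Cu replicate 1.

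*Jag2* (Jagged 2, chr12:112907819-112929776, minus strand) went the other way in 1 line. It had 68.4, 83.9 and 95.3 CPM in scr, 78.3, 91 and 111 CPM in *Baf180* KD and 85.7, 87.9 and 94.1 CPM in *Brd9* KD, all overlapping, but 34.7, 38 and 51.4 CPM in *Baf250a* KD, below every other library. The log2 fold change in *Baf250a* KD was -1.03 (SE 0.12, adjusted p = 7.86e-06). In *Baf180* KD it was 0.14 (adjusted p = 0.218), and without scr NT replicate 2 it was 0.20 (adjusted p = 0.0427).

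*Jag1* (Jagged 1, chr2:137081456-137116644, minus strand) did not pass the test in any of the 3 lines. Its lowest, median and highest values were 21.7, 23.8 and 25.3 CPM in scr and 24.1, 26.4 and 35 CPM in *Baf250a* KD, where the highest value came from the library of lowest depth. The log2 fold changes were 0.07, 0.18 and 0.06 in *Baf180*, *Baf250a* and *Brd9* KD, with SEs of 0.06, 0.08 and 0.06.

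*Rbpj*, the DNA-binding factor (chr5:53466152-53657362, plus strand), rose in *Baf180* KD by 0.28 on the log2 scale (SE 0.06, adjusted p = 0.00179). There it had 49.2, 50.5 and 52.5 CPM, above all scr libraries (38.1, 41.9 and 44.3 CPM). *Baf250a* KD (36.9, 40.8 and 48.5 CPM) and *Brd9* KD (40.2, 46.5 and 49.6 CPM) overlapped scr, and neither passed the test.

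Of the targets, *Hey1*, a repressor of the Hey family (chr3:8663359-8667256, minus strand), had 14.6, 20.6 and 30 CPM in scr. It had 2.8, 4.36 and 5.37 CPM in *Baf180* KD, 1.94, 4.42 and 5.73 CPM in *Baf250a* KD and 7.11, 10.1 and 11.5 CPM in *Brd9* KD, and every KD library was below every scr library. It fell by 2.38 on the log2 scale in *Baf180* KD (SE 0.10, adjusted p = 1.18e-09), 5.22-fold lower. It fell by 2.14 in *Baf250a* KD (SE 0.15, adjusted p = 3.72e-08) and by 1.14 in *Brd9* KD (SE 0.09, adjusted p = 2.69e-07).

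*Heyl*, its family member (chr4:123233556-123249875, plus strand), moved in the opposite direction. The lowest, median and highest values were 0.934, 3.03 and 3.31 CPM in scr, 4.75, 11 and 14.7 in *Baf180* KD, 3.51, 7.32 and 9.72 in *Baf250a* KD and 1.67, 2.86 and 4.46 in *Brd9* KD. Both *Baf180* and *Baf250a* KD were wholly above scr. The log2 fold change was 1.95 (SE 0.14, adjusted p = 1.13e-07) in *Baf180* KD and 1.42 (SE 0.16, 5.17e-06) in *Baf250a* KD. In *Brd9* KD it was 0.21 (SE 0.16) and did not pass the test.

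*Hes1*, the Hes family repressor best known as a direct target (chr16:30064384-30067796, plus strand), had 22.4, 25.9 and 28.7 CPM in scr. It had 37.3, 38.5 and 45 CPM in *Baf180* KD and 36.3, 39 and 50.6 CPM in *Baf250a* KD, without overlap, and 28.2, 30.1 and 32.3 CPM in *Brd9* KD, which overlapped scr. The log2 fold change was 0.60 (SE 0.07, adjusted p = 1.36e-05), 0.67 (SE 0.09, 2.74e-05) and 0.21 (SE 0.07, 0.0284) in that order. The call in *Brd9* KD was lost on leaving out any of 6 libraries (*Brd9* KD NT, Cu or Zn replicate 1, scr NT replicate 1, scr Cu replicate 2 or scr Zn replicate 2), with log2 fold changes of 0.17 to 0.22 and adjusted p of 0.0515 to 0.0688.

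**Figure D2:**
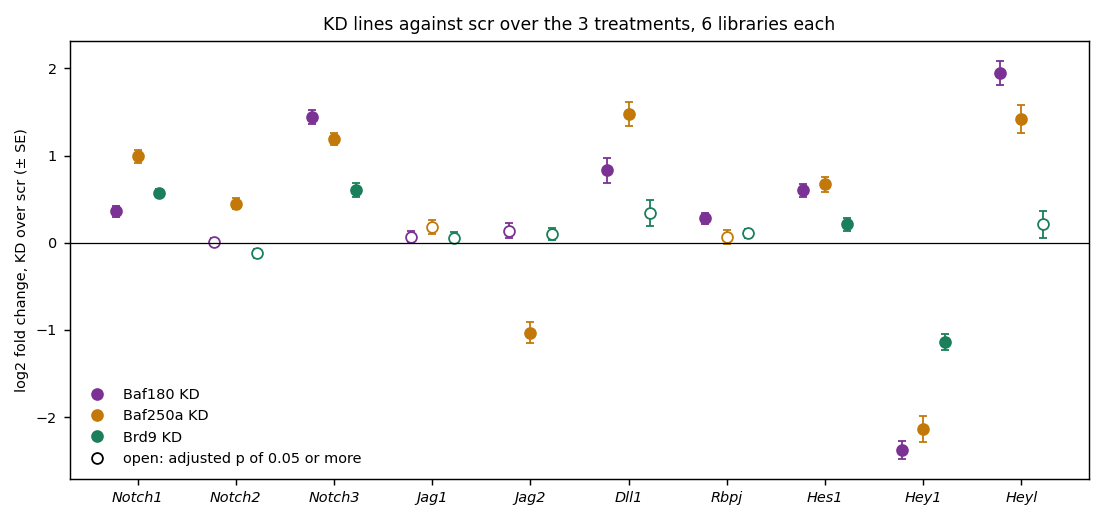
Log2 fold change of each gene in *Baf180*, *Baf250a* and *Brd9* KD over scr (y axis), with the SE of the edgeR fit as error bars and open symbols where the test was not passed, over 6 libraries a line. *Hey1* lies between -2.38 and -1.14, *Heyl* reaches 1.95 in *Baf180* KD, and *Jag2* is low in *Baf250a* KD only (-1.03).

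Counted by ranges, 7 of the 10 genes did not overlap between *Baf180* KD and scr (23.4% of all genes did not), 8 between *Baf250a* KD and scr (27.4%) and 2 between *Brd9* KD and scr (15.7%). The 2 were *Notch1* and *Hey1*. Some marker lists of other cell types differed between lines. The smooth muscle and pericyte markers, 3 of 6 of which reached a median of 1 CPM, summed to 1917 to 2820 CPM in scr, 1956 to 3132 in *Baf180* KD, 5460 to 6693 in *Baf250a* KD and 1630 to 2590 in *Brd9* KD. Nearly all of this was *Acta2*, and *Myh11*, *Rgs5* and *Kcnj8* were at most 1.04, 0.229 and 0.135 CPM in any library. *Mcam* had lower medians in the KD lines (57.6 CPM in scr against 8.33, 8.87 and 28.7 CPM in that order). *Cspg4* had higher ones (32.7 CPM in scr against 112, 82.1 and 68 CPM). The 5 fibro-adipogenic markers, 3 of them at a median of 1 CPM or more, summed to 10.7 to 19 CPM in scr, 41.8 to 61.7 in *Baf180* KD, 161 to 183 in *Baf250a* KD and 30.5 to 41.6 in *Brd9* KD, and *Dpp4* was at 0 in 18 of 24 libraries. The myoblast markers summed to medians of 4263, 2443, 1801 and 2673 CPM in scr, *Baf180*, *Baf250a* and *Brd9* KD, and the 7 markers of differentiated muscle to 105, 142, 72.4 and 42.7 CPM. *Des* was the largest part of the myoblast sum (medians 2043, 1111, 864 and 1225 CPM). *Myf5*, *Cdh15*, *Itga7* and *Chrna1* also had lower medians in every KD line. *Vcam1* had higher ones (16.2 CPM in scr against 112, 132 and 49.8 CPM), and *Myod1* and *Pax7* differed in direction between lines. In *Baf250a* KD the medians of *Myog* (9.6 against 5.04 CPM in scr), *Myh3* (8.72 against 4.94 CPM) and *Mymk* were higher, against the sum. In *Baf180* KD those of *Actc1* (16.8 against 20.7 CPM in scr) and *Tnnt3* (9 against 11.4 CPM) were lower, against the sum. *Acta1* was level there (56.2 against 56.1 CPM), and *Myog*, *Myh3*, *Ckm* and *Mymk* were higher. The part of these marker lists in the Notch gene values was not tested.

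A correction for GC content and transcript length was fitted as an alternative. It left 7, 8 and 4 calls of KD over scr on the 10 genes in place. *Notch1* and *Notch3* became smaller in *Baf180* KD (0.16 and 1.26), *Baf250a* KD (0.78 and 1.04) and *Brd9* KD (0.51 and 0.56). *Notch2* in *Baf250a* KD went from 0.45 to 0.28, and within the Zn treatment it no longer passed (0.20, adjusted p = 0.145). The correction added *Notch2* in *Baf180* and *Brd9* KD.

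**Figure D3:**
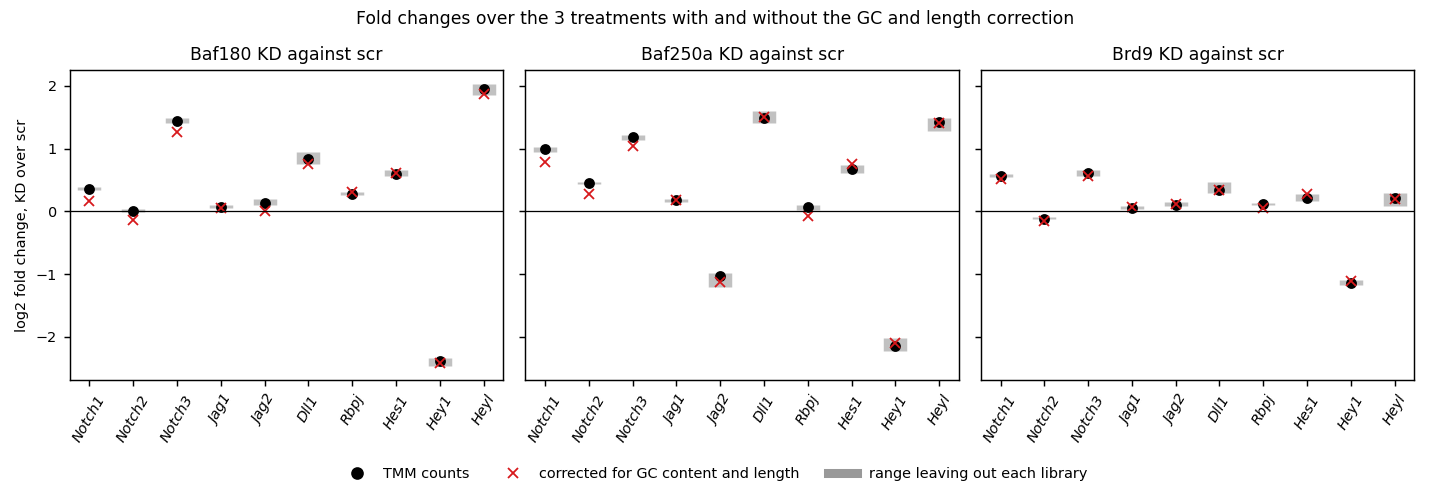
Log2 fold changes of the 10 genes in each KD line over scr from TMM-scaled counts (black) and with GC content and length corrected for (red crosses), with grey bars for the range on leaving out each of 12 libraries in turn. *Hey1* keeps -2.42 in *Baf180* KD after the correction, while *Notch1* moves there from 0.36 to 0.16.

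Within single treatments (2 KD against 2 scr libraries), the same directions held for *Hey1*, which fell in all 9 comparisons, by 1.04 (*Brd9* KD, Zn) to 2.51 (*Baf250a* KD, NT) on the log2 scale. *Notch3* was higher in all 9, by 0.38 (*Brd9* KD, Cu) to 1.69 (*Baf180* KD, Zn). It passed the test in 8, by at least 0.58 (*Brd9* KD, NT), and the value of 0.38 did not pass (adjusted p = 0.0683). *Heyl* rose in all 6 comparisons of *Baf180* and *Baf250a* KD, by 1.26 to 2.05. The *Heyl* call in *Baf250a* KD with Zn was lost with DESeq2 (adjusted p = 0.119) and without *Baf250a* KD Zn replicate 1 (adjusted p = 0.142), scr Zn replicate 1 (0.096) or scr Zn replicate 2 (0.0938), and that with Cu without *Baf250a* KD Cu replicate 1 (0.0938). The *Hey1* call in *Brd9* KD with Cu was lost without its replicate 1 (adjusted p = 0.101), and the *Notch3* call in *Brd9* KD without metal was lost without its replicate 1 (adjusted p = 0.0763). Without metal, 6 of the 10 genes passed in *Baf180* KD (41.0% of all genes), 8 in *Baf250a* KD (57.8%) and 3 in *Brd9* KD (29.2%). With Cu these were 5 (24.9%), 8 (41.2%) and 2 (12.2%), and with Zn 8 (49.9%), 8 (57.5%) and 4 (23.2%). In *Baf180* and *Brd9* KD, *Jag2* passed the test within the Zn treatment only. With Zn, scr had 68.4 and 68.8 CPM, *Baf180* KD 94.1 and 91.6 CPM (log2 fold change 0.38, adjusted p = 0.00104) and *Brd9* KD 86.5 and 86.7 CPM (0.31, adjusted p = 0.0163). After the GC and length correction neither passed (0.03 and 0.13, adjusted p = 0.747 and 0.162), and the *Brd9* KD call was lost without scr Zn replicate 1 (adjusted p = 0.222) or replicate 2 (adjusted p = 0.206). Leaving out 1 library moved some of these counts by over 1.5 times. The count for *Brd9* KD without metal was 1 without its replicate 1, that for *Baf180* KD with Cu was 3 without either of its Cu replicates, and that for *Baf250a* KD with Cu was 4 without its replicate 1 and 5 without its replicate 2. For *Brd9* KD with Cu it was 0 and 1 without its replicates 1 and 2 and 4 without either scr Cu replicate, and for *Baf250a* KD with Zn it was 4 and 5 without scr Zn replicates 1 and 2.

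The KD lines were then compared with each other over the 3 treatments, comparisons added after the values had been seen. *Baf250a* against *Baf180* KD had 7 of the 10 genes past the threshold (44.7% of all genes). *Jag2* was lower in *Baf250a* KD (log2 fold change -1.19, SE 0.09, adjusted p = 3.60e-09), as were *Heyl* (-0.56), *Notch3* (-0.26) and *Rbpj* (-0.25). *Dll1* (0.64, SE 0.10, adjusted p = 6.08e-05), *Notch1* (0.60, SE 0.06) and *Notch2* (0.41, SE 0.05) were higher. *Hey1* (0.23), *Hes1* (0.03) and *Jag1* (0.05) did not pass.

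*Brd9* KD differed from *Baf180* KD in 8 genes (40.8% of all genes) and from *Baf250a* KD in 8 (54.1%). Against both, *Brd9* KD had more *Hey1*, by 1.27 (SE 0.10, adjusted p = 6.23e-08) and 1.00 (SE 0.13, adjusted p = 4.55e-06) on the log2 scale, and less *Notch3* (-0.82 and -0.59), *Heyl* (-1.71 and -1.18), *Dll1* (-0.46 and -1.12), *Hes1* (-0.37 and -0.43) and *Notch2* (-0.11 and -0.56). The *Notch2* difference from *Baf180* KD was lost after the GC and length correction (adjusted p = 0.933) and without either *Baf180* KD Cu library or *Brd9* KD Cu replicate 1. *Jag2* was higher than in *Baf250a* KD (1.14, SE 0.08). *Notch1* stood between the other lines, above *Baf180* KD (0.23) and below *Baf250a* KD (-0.41). The difference of *Rbpj* from *Baf180* KD (-0.15, adjusted p = 0.0346) was lost without any 1 of 6 libraries, the NT pair of either line, *Baf180* KD Cu replicate 2 or *Brd9* KD Cu replicate 2.

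The second question was how the metals acted. Cu lowered *Heyl*, *Hey1* and *Notch3* over the 4 cell lines (8 Cu against 8 NT libraries, with the line as a term, added after the values had been seen). *Heyl* fell by 1.05 on the log2 scale (SE 0.11, adjusted p = 3.58e-06), *Hey1* by 0.58 (SE 0.10, adjusted p = 0.00143) and *Notch3* by 0.36 (SE 0.07, adjusted p = 0.00424). These were 3 of the 10 genes, against 3.85% of all genes, and all 3 calls held without any 1 of the 24 libraries. With Zn 0 of the 10 passed the edgeR test over the lines (0.0847% of all genes), 0 had an unadjusted p under 0.05, and DESeq2 called 0.

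*Heyl* had 3.31 and 2.83 CPM in scr NT and 1.72 and 0.934 CPM in scr Cu. In *Baf180* KD it had 10.4 and 11.8 CPM without metal and 5.68 and 4.75 CPM with Cu, in *Baf250a* KD 6.50 and 8.14 CPM and 4.08 and 3.51 CPM, and in *Brd9* KD 3.64 and 2.63 CPM and 1.72 and 1.67 CPM. Both Cu libraries were below both NT libraries in all 4 lines for *Heyl* and *Notch3*, as for 1.27% of all genes. *Notch3* went from 59.5 and 65.4 CPM to 47.5 and 48.9 CPM in scr and from 100 and 85.1 CPM to 59.9 and 67 CPM in *Brd9* KD. *Hey1* did so in 3 lines (25.8 and 30 CPM to 17.8 and 14.6 CPM in scr), and in *Baf250a* KD its Cu values (3.99 and 4.84 CPM) overlapped the NT values (5.73 and 4 CPM).

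Within single lines, which had 2 libraries a side, fewer of these differences passed. With Cu, *Baf180* KD had 2 of the 10 genes past the threshold (13.8% of all genes), *Heyl* (log2 fold change -1.13, SE 0.17, adjusted p = 0.00753) and *Hey1* (-0.78, SE 0.22, adjusted p = 0.0456). The *Heyl* call was lost without *Baf180* KD NT replicate 2 (-1.02, adjusted p = 0.078), and the *Hey1* call without any 1 of the 4 Cu and NT libraries (-0.87 to -0.68, adjusted p of 0.0869 to 0.227). *Baf250a* KD had 1 (1.27%), *Heyl* (-0.93, SE 0.19, adjusted p = 0.0101), lost without Cu replicate 2 (adjusted p = 0.139) or NT replicate 2 (adjusted p = 0.264). In scr (0.0333% of all genes) and *Brd9* KD (0.274%) edgeR called 0, with 4 and 6 of the 10 genes at an unadjusted p under 0.05, and DESeq2 called 1 in each. The edgeR values for *Heyl* were -1.28 in scr and -0.95 in *Brd9* KD, and for *Notch3* -0.35 and -0.60.

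With Zn, edgeR called 0 of the 10 genes in scr (17.6% of all genes), 0 in *Baf180* KD (0.0197%) and 0 in *Brd9* KD (0.0334%), with 3, 1 and 0 at an unadjusted p under 0.05 and 0 by DESeq2 in each. The number of all genes called in scr depended on the fit, with 2645 here, 93 after the GC and length correction and 14 with the replicate number as a block. In *Baf250a* KD *Jag2* was called (15.9% of all genes). It had 37.8 and 34.7 CPM without metal and 51.4 and 40.8 CPM with Zn, the value of 40.8 from 21 counts. The log2 fold change was 0.47 (SE 0.12, adjusted p = 0.0100). This call was lost without Zn replicate 1 (0.21, adjusted p = 0.774) or NT replicate 2 (0.41, adjusted p = 0.151), and DESeq2 did not make it (adjusted p = 0.37).

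**Figure D4:**
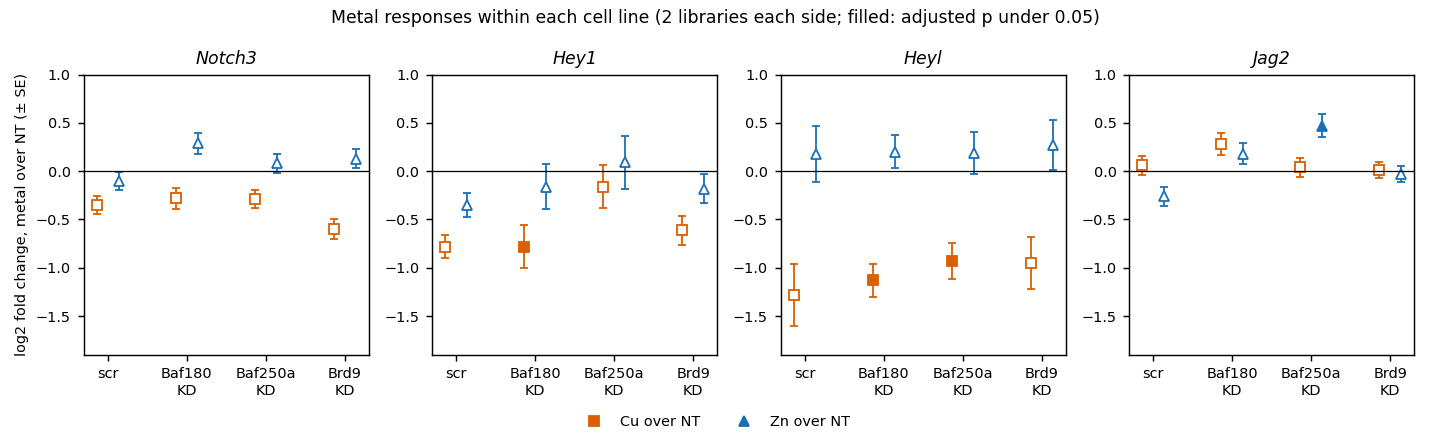
Log2 fold change of *Notch3*, *Hey1*, *Heyl* and *Jag2* with Cu (squares) and Zn (triangles) over NT in each cell line (y axis, error bars are SE), 2 libraries a side, with filled symbols for calls. Cu values of *Heyl* lie between -1.28 and -0.93 in the 4 lines, while its Zn values are above 0.

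Whether a KD line responded to a metal differently from scr was tested as a difference of responses over all 24 libraries. For Cu 0 of the 10 genes passed the edgeR test in *Baf180* KD (12.8% of all genes), *Baf250a* KD (0.0121%) or *Brd9* KD (0.0363%), with 0, 2 and 1 at an unadjusted p under 0.05 and 0 by DESeq2. For *Heyl* the difference of Cu responses was 0.23, 0.39 and 0.43. For Zn *Jag2* passed in *Baf180* KD (difference 0.55, SE 0.14, adjusted p = 0.00795) and in *Baf250a* KD (0.81, SE 0.16, adjusted p = 0.00104). In scr it went from 79.8 and 95.3 CPM to 68.4 and 68.8 CPM, and in *Baf180* KD from 78.3 and 83.4 CPM to 94.1 and 91.6 CPM. *Notch3* also passed in *Baf180* KD (0.50, SE 0.16, adjusted p = 0.0241), with 142 and 154 CPM without metal and 186 and 182 CPM with Zn. These were 2 of the 10 genes in *Baf180* KD (28.7% of all genes), 1 in *Baf250a* KD (30.5%) and 0 in *Brd9* KD (11.1%, with 1 at an unadjusted p under 0.05 and 0 by DESeq2). The median difference of Zn responses over all genes was 0.09 in *Baf180* KD and 0.06 in *Baf250a* KD. After the GC and length correction none of the 3 differences passed (*Jag2* 0.10 and 0.38, *Notch3* 0.12). The *Jag2* difference was also lost without scr NT replicate 2 in *Baf180* KD (0.42, adjusted p = 0.0764) and without *Baf250a* KD Zn replicate 1 in *Baf250a* KD (0.49, adjusted p = 0.405). That of *Notch3* was called in 14 of the 24 fits with 1 library left out. It was 0.41 without *Baf250a* KD Cu replicate 1, a library outside the groups compared.

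Other genes of the pathway were taken in 7 lists of 75 genes. Over the 3 treatments 35 of 66 tested passed in *Baf180* KD (26 higher, 9 lower, median log2 fold change 0.08), 45 of 66 in *Baf250a* KD (30 higher, 15 lower, median 0.21) and 30 of 67 in *Brd9* KD (16 higher, 14 lower, median -0.01), beside the 41.3%, 51.8% and 32.8% of all genes. Values are given for the 2 largest rises and the 2 largest falls of each list in each line, so a gene can have passed in further lines. Of the 20 nuclear cofactors, 8, 11 and 6 passed in that order. *Maml2*, a Mastermind coactivator of the Notch and Rbpj complex, rose in each line, from 9.59 ± 1.23 CPM in scr to 30.5 ± 3.52 in *Baf180* KD, 67.5 ± 17.1 in *Baf250a* KD and 17.4 ± 0.733 in *Brd9* KD (SD, n = 6), log2 fold changes of 1.65, 2.83 and 0.85. *Maml3* rose too, by 0.69, 0.98 and 0.32. *Kat2b*, an acetyltransferase, fell by 0.90 in *Baf180* and 0.63 in *Brd9* KD, the corepressor *Tle4* by 0.56 in *Baf180* and 1.07 in *Baf250a* KD, the deacetylase *Hdac2* by 0.60 in *Baf250a* KD and the demethylase *Kdm5a* by 0.29 in *Brd9* KD.

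Among 11 genes of trafficking and ubiquitin ligases tested, 5 passed in *Baf180* KD, 7 in *Baf250a* KD and 5 in *Brd9* KD. The shares of all genes were 41.3%, 51.8% and 32.8%. *Neurl1a*, a ubiquitin ligase of the Neuralized family, fell by 1.35, 2.02 and 0.98 on the log2 scale, and *Dtx4*, of the Deltex family, by 0.96, 1.73 and 0.77. The ligase *Nedd4* rose by 0.35, 0.68 and 0.28, and *Numbl*, of the Numb family of Notch inhibitors, by 0.33 in *Baf180* and 0.78 in *Baf250a* KD. Of 9 genes for receptor cleavage, 2, 3 and 2 passed, a smaller share than of all genes in each line. *Ncstn*, a gamma-secretase subunit, rose by 0.37 in *Baf180* and 0.65 in *Baf250a* KD, *Furin* by 0.29 in *Baf180* KD and *Psen2* by 0.42 in *Baf250a* KD. In *Brd9* KD *Adam17*, a sheddase, fell by 0.20.

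Of 4 receptor glycosylation genes tested, 2, 3 and 1 passed, beside 41.3%, 51.8% and 32.8% of all genes. *Pofut1*, the O-fucosyltransferase of Notch, rose by 0.29, 0.63 and 0.18, and the fringe enzymes *Rfng* by 0.30 in *Baf180* KD and *Lfng* by 0.88 in *Baf250a* KD, where the O-glucosyltransferase *Poglut1* fell by 0.65. Of the other receptors and ligands, 2 of 3 tested passed in *Baf180* KD, 3 of 4 in *Baf250a* KD and 2 of 4 in *Brd9* KD, all higher. *Mfap5*, a microfibril protein also described as a Notch ligand, had 0.0928 ± 0.0519 CPM in scr, 4.91 ± 1.4 in *Baf180* KD, 20.2 ± 5.14 in *Baf250a* KD and 1.57 ± 0.551 in *Brd9* KD (SD, n = 6), log2 fold changes of 5.75, 7.86 and 4.16. *Mfap2* was near 0 in scr (0.0149 CPM), with 0.528 ± 0.37 CPM in *Baf250a* and 0.481 ± 0.103 CPM in *Brd9* KD. *Dlk2*, a Delta-like protein without the usual ligand domain, rose by 1.23 in *Baf180* KD.

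Further targets passed in 7 of 10 tested in *Baf180* KD (41.3% of all genes), 9 of 9 in *Baf250a* KD (51.8%) and 6 of 10 in *Brd9* KD (32.8%). *Ccnd1* (cyclin D1) rose by 1.35 in *Baf180* and 1.52 in *Brd9* KD, and the Id repressors *Id2* and *Id3* by 2.45 and 2.38 in *Baf250a* KD. *Hey2*, the remaining Hey family gene, had 0.851 ± 0.283 CPM in scr and fell like *Hey1*, by 1.75 in *Baf180* and 1.72 in *Baf250a* KD. *Nrarp*, a feedback inhibitor of Notch, rose by 1.68 in *Baf180* and 1.79 in *Brd9* KD from 0.145 ± 0.0963 CPM. *Hes7*, near 0 in both lines, fell by 1.87 in *Baf250a* KD (0.414 ± 0.142 CPM in scr and 0.0834 ± 0.0564 CPM in the KD). *Cdkn1a* fell by 0.33 in *Brd9* KD and passed as higher in *Baf250a* KD.

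Of 9 muscle genes tied to Notch that were tested, 9, 9 and 8 passed, beside 41.3%, 51.8% and 32.8% of all genes. *Myf5*, a myogenic determination factor, fell by 1.82, 2.21 and 0.74, from 162 ± 27.7 CPM in scr. *Myog*, a differentiation factor, rose by 2.51 in *Baf180* KD (5.19 ± 1.49 to 29.2 ± 4.52 CPM) and fell by 0.79 in *Brd9* KD. *Col5a3* rose by 1.88 in *Baf180* and 1.60 in *Brd9* KD, *Pax7* by 1.43 in *Brd9* KD, and the collagens *Col5a1* and *Col5a2* by 1.30 and 1.74 in *Baf250a* KD. There *Mef2c*, at low levels that overlapped, fell by 0.94 (0.601 ± 0.194 CPM in scr and 0.255 ± 0.163 CPM in the KD). Some of these passed in the other direction elsewhere: *Pax7* was lower in *Baf250a* KD, *Col5a2* lower in *Brd9* KD, *Mef2c* higher in *Baf180* and *Brd9* KD, and *Myog* higher in *Baf250a* KD. With Cu over the 4 lines 4 of the 67 list genes tested passed (2 higher, 2 lower), or 5.97%, near the 3.85% of all genes.

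By pattern, the gene most like *Notch1* over the 24 libraries was *Chrdl1* (Pearson r 0.95 of log2 CPM), like *Notch2* *Denn2b* (0.98), like *Dll1* *Mmp14* (0.96), like *Heyl* *Piezo2* (0.95) and like *Jag1* *Gm36527* (0.86). These 5 stayed the most alike without the library of lowest depth (0.95, 0.98, 0.96, 0.95 and 0.75 over 23 libraries). For the others the most alike gene changed: *Notch3* from *Zcchc24* (0.95) to *Cd248* (0.97), *Jag2* from *Slc4a8* (0.96) to *Rnd1* (0.96), *Rbpj* from *Mapt* (0.86) to *Msmo1* (0.86), *Hes1* from *Evc* (0.96) to *Asrgl1* (0.97) and *Hey1* from *Map3k7cl* (0.97) to *Ccdc8* (0.98). The libraries fall into 4 cell lines that share their treatments, so the values describe mainly the order of the lines and carry no test.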

How the data were processed

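RNA was sequenced from 24 C2C12 libraries (4 cell lines, 3 treatments, 2 independent biological replicates). The authors depleted rRNA with RNase H, made strand-specific libraries, used STAR to place uniquely mapping reads on mm10, and ran featureCounts on pairs with strand taken into account. The deposited values are whole-number counts for 55291 symbols, not normalized, and the authors' tables of fold changes and p-values were not used. Versions are not given in the sources used here. Samples were grouped by title, since a treatment tag contradicts the titles.

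Counts were fitted in R 4.3.3 with edgeR 4.0.16 (TMM, filterByExpr, quasi-likelihood test, SE from the log2 fold change and F). A Benjamini-Hochberg adjusted p under 0.05 over all genes tested is a call. Fits used 12 libraries for a KD over the 3 treatments, 4 within a treatment, 6 for a metal within a line and 24 for differences and for metals over the lines. CPM use all 24 libraries, and log2 values were computed with a prior count of 2. GC content and exon length came from GENCODE M21 (GRCm38) for 53292 symbols, and the correction fitted a spline of 5 degrees of freedom per library as an offset. Alternatives were DESeq2 1.42.0, RLE size factors, all genes with at least 1 count, other libraries in the fit, that correction, a minimum fold of 1.5, the replicate number as a block and each library left out. The tests were run on simulated counts before use. Depth per library sets the precision of low genes such as *Heyl*.

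The members and lists were chosen with earlier results of these data known. Named genes were the 10 members, the targeted genes, for each list the 2 largest rises and the 2 largest falls among called genes in each KD over scr comparison, and the 2 genes of most similar pattern per member, of which the first is given. The values of 1 list gene that this rule names are not reported here. Marker lists are described by their sums and by some single markers. Deviations of same-numbered replicates correlated with r of -0.18 to 0.39 (median 0.06) over 66 pairs of groups, above 0.1 in 30 of them. Pairing was to be used only where every pair exceeded 0.1, so the replicates were not paired. Promoter windows came from RefSeq.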

Additional observations from a re-analysis of the deposited data

Results flagged for a closer look

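In all, 3 differences of metal responses between a KD line and scr passed the test over all 24 libraries, all with Zn. For *Jag2* the log2 fold change with Zn was -0.26 in scr, 0.18 in *Baf180* KD and 0.47 in *Baf250a* KD, and the fitted differences from scr were 0.55 and 0.81. For *Notch3* it was -0.10 in scr and 0.29 in *Baf180* KD, with a fitted difference of 0.50. The single responses come from fits within each line and the differences from the fit of all 24 libraries, so they need not add up. Over all genes the median difference was 0.09 in *Baf180* KD and 0.06 in *Baf250a* KD. Of these single responses, that of *Jag2* in *Baf250a* KD passed the test within its line. None of the 3 passed after the GC and length correction, and the comparisons share the scr libraries.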

How the results depend on the processing

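Counts of the 10 genes called stayed within 1.5 times when any 1 library was left out in 18 of 31 comparisons. The others ranged as follows: *Brd9* KD over scr 1 to 3 without metal and 0 to 4 with Cu, *Baf180* KD over scr with Cu 3 to 5, *Baf250a* KD over scr 4 to 8 with Cu and 4 to 8 with Zn, Cu over NT 0 to 2 in *Baf180* KD, 0 to 2 in *Baf250a* KD and 0 to 1 in *Brd9* KD, Zn over NT 0 to 1 in scr and 0 to 1 in *Baf250a* KD, and the Zn difference 0 to 2 in *Baf180* KD, 0 to 1 in *Baf250a* KD and 0 to 1 in *Brd9* KD. Where this left 1 library in a group, it was taken to vary like the others.

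With a minimum fold of 1.5, which asks for larger changes by construction, the counts were 3 for *Baf180* KD and 1 for *Brd9* KD over the 3 treatments, 3 and 1 without metal, 3 and 0 with Cu, 3 and 2 with Zn, 1, 3 and 4 for *Baf250a* against *Baf180* KD, *Brd9* against *Baf180* KD and *Brd9* against *Baf250a* KD, and 0 for every metal response and difference that had a call, Cu over the 4 lines included. DESeq2 gave 5 for *Baf250a* KD over scr with Zn (2983 of all genes called, against 8304), 1 for Cu in each of scr, *Baf180* KD and *Brd9* KD, and 0 for Cu and Zn in *Baf250a* KD. Keeping all genes with at least 1 count gave 2, 4 and 3 for Cu in scr, *Baf180* KD and *Brd9* KD, where all genes called rose from 5 to 758, 2097 to 3018 and 41 to 1060, and 1 for the Zn difference in *Baf180* KD. With other libraries in the fit the counts were 2 for Cu and 2 for Zn in scr, 0 for Cu in *Baf250a* KD, 1 for Cu in *Brd9* KD and 1 for the Zn difference in *Baf180* KD. The GC and length correction gave 5 for *Brd9* KD over scr without metal, 2 for Zn in *Baf250a* KD, 1 for Cu in *Brd9* KD and 0 for the Zn difference in *Baf180* KD. It reversed the direction of *Notch2* in *Baf180* KD over scr (-0.14 over the treatments, -0.18 with Zn), of *Rbpj* in *Baf250a* KD without metal (-0.25) and of the *Rbpj* Zn difference in *Baf250a* KD (0.60, adjusted p = 0.00903). The cause was not tested in any of these.

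With RLE size factors the largest move of the median of all genes was from 0.06 to -0.04, for the Zn difference in *Baf250a* KD. In *Baf250a* KD over scr the median over all genes was 0.30 with DESeq2 over the treatments and 0.40 with Zn, and with all genes of at least 1 count it was -0.11 and -0.30. With the replicate number as a block, *Brd9* KD over scr with Zn had 5 of the 10 genes called in place of 4, and 308 of the 310 values of single genes kept their call and direction. The block moved the number of all genes called from 2645 to 14 for Zn in scr, from 3 to 657 for Zn in *Baf180* KD and from 8304 to 4781 for *Baf250a* KD over scr with Zn. Same-numbered replicates correlated above 0.1 in 30 of 66 pairs of groups, not in all. Depth limits *Hey1*, *Dll1* and *Heyl* most in the library with 495778 counts, where they had 1, 4 and 5 counts. *Jag1*, *Rbpj*, *Jag2* and *Hes1* were also low there, with 18, 19, 21 and 26 counts.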
